A study of Gallus gallus with 26 samples.

Results

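Chemokines, interleukins and their receptors carry signals between immune, stromal and epithelial cells. Their messenger RNAs were followed here in late-stage ovarian tumours, early-stage ovarian tumours and normal ovaries of the chicken (Gallus gallus). Members were taken by symbol from the table of 25079 genes: names that begin with CCL, CXCL, CXCR or CX3C, with CCR, XCL or XCR and a digit, or with IL and a digit. This gave 99 genes, 44 of them ligands, 50 receptors or receptor chains and 5 others that carry an interleukin name without being either. A gene of these families that the table lists under another symbol is not among them.

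Chemokines are small secreted proteins that bind receptors coupled to G proteins and steer the migration of leukocytes along a gradient. Interleukins bind receptors of several families: short-chain interleukins and the IL6, IL12 and IL10 families signal through Janus kinases and STAT proteins, while IL1, IL18 and IL17 receptors lead to NF-kappaB. In the ovary such signals are known for follicle rupture and repair, and in ovarian tumours for the traffic of T cells, B cells and macrophages.

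The study compared tumour stages with normal ovary in 5 late-stage tumours, 4 early-stage tumours and 4 normal ovaries, below called late, early and normal and numbered as in their sample codes. No treatment, strain or age is given in the sources used here. Whether each sample is another hen is not labelled either, and p-values therefore cover only the variation among the samples at hand. RNA came from tissue and not from sorted cells, and fewer cells of a type cannot be told apart from less RNA per cell.

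Libraries held 16273731 to 20118629 counts, of which 0.111% to 0.165% fell on the 99 members. Levels are given as TPM, which is scaled for gene length and library total and allows genes to be compared. Differences are log2 fold changes ± standard error (SE) from edgeR's quasi-likelihood test, with Benjamini-Hochberg adjustment over 16130 tested genes. Listed markers of ovarian follicle and oocyte summed to 1578 to 2062 CPM (counts scaled to library size) in late, 1125 to 2078 in early and 1096 to 1817 in normal, and those of epithelium to 1290.2 to 1587, 1167 to 1545 and 1047 to 1307. The 10 fibroblast markers summed to 526 to 4157 CPM in late, 1103 to 8531 in early and 2940.3 to 11291 in normal, and 7 smooth muscle markers to 114 to 1604, 378 to 3989 and 633 to 9652, with overlap between late and normal for both. None of the listed markers found in the table was at 0 counts over all libraries.

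One normal library stood closer to most late tumours than to the other normal ovaries. Correlations are of log2 CPM across all tested genes, which are not independent replicates. Normal 7 correlated at 0.972 to 0.981 with late 7, 23, 25 and 31 and at 0.956 with late 3. With normal 3, 4 and 6 it correlated at 0.949, 0.94 and 0.968, and with early 9, 11, 12 and 21 at 0.951, 0.972, 0.978 and 0.957. Normal 6 also correlated higher with late 25, at 0.975, than with any normal ovary, at 0.961 to 0.968. Without normal 7, late minus normal again had 0 members called. Members whose log2 fold change was then farther from 0 by over 1.5 times included CXCL13L3 (1.15, beside 0.66 with it), IL1RAPL2 (0.98 beside 0.54), IL20RA (0.70 beside 0.45), IL6 (1.58 beside 0.65) and IL9 (0.61 beside 0.38). Normal 7 was the highest normal ovary for each of these, so leaving it out widens their differences by itself.

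The family was carried by few genes. Of the 99 members, 20 averaged 10 TPM or more over the 13 libraries, 31 lay between 1 and 10 TPM, 30 between 0.1 and 1 TPM and 18 under 0.1 TPM. A total of 58 passed the expression filter and were tested, and 41 did not, with 0 to 107 counts over all libraries. Ligands made up 25 of those 41, against 13 receptors and 3 of the other genes. Every IL17 family ligand (5 genes) and IL10 family ligand (3 genes) was among them, while all 5 IL17 receptors and 4 of the 6 IL10 family receptors or binding proteins were tested. IL17A and IL26 had no count in any library.

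Summed over genes, ligands reached 626 ± 105 TPM in late, 553 ± 74.9 in early and 506 ± 72.1 in normal (SD, n = 5, 4 and 4). Receptors summed to 387 ± 55.9 TPM in late, 380.1 ± 19.2 in early and 343 ± 16.6 in normal. The 15 chemokine receptors had 132 ± 48.4 TPM in late, 109.9 ± 11.7 in early and 75.1 ± 16 in normal, most of it from CXCR4 and CXCR7. These sums are descriptions and rest on the few most abundant genes.

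**Figure D1:**
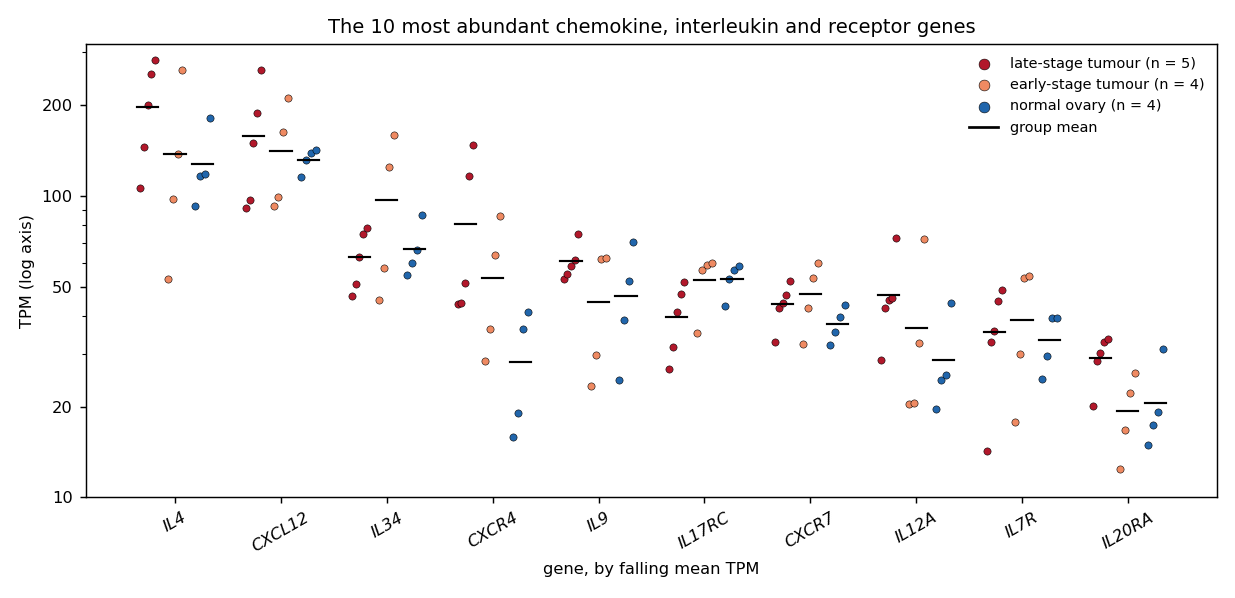
TPM in each of the 13 libraries (points, log axis) for the 10 members with the highest mean TPM, with late left, early in the middle and normal right for each gene; black bars are group means. CXCR4 is the gene whose late and normal points do not overlap.

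Among chemokines, CXCL12 was the most abundant, at 145 TPM on average. It is the ligand of CXCR4 and of the scavenger receptor CXCR7, is made by stromal cells, and holds and guides stem cells and lymphocytes. CXCL12 had 91.3, 263, 189, 150.4 and 96.8 TPM in late tumours, 212, 92.6, 99 and 163 TPM in early tumours and 132, 116, 143 and 139 TPM in normal ovaries, in order of sample number (late 3, 7, 23, 25 and 31, early 9, 11, 12 and 21, normal 3, 4, 6 and 7). Normal ovaries lay close together inside the wider range of the tumours, and its log2 fold change was 0.22 ± 0.37 in late minus normal, 0.18 ± 0.39 in early minus normal and 0.03 ± 0.37 in late minus early. Of its values, 84.6% were not whole numbers, as estimates that divide reads between features give, so its level and its rank are uncertain.

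CXCR4 was the member with the largest positive difference between late tumours and normal ovaries. It had 148, 44.3, 117, 43.7 and 51.4 TPM in late tumours, 28.3, 85.8, 63.8 and 36.2 TPM in early tumours and 36.1, 15.8, 19 and 41.4 TPM in normal ovaries. All 5 late tumours were above all 4 normal ovaries, late 3 and late 23 stood highest, and early tumours overlapped both. In RefSeq it overlaps THSD7B, which averaged 1.02 TPM. The log2 fold change was 1.52 ± 0.42 in late minus normal, with an unadjusted p of 0.00263 and an adjusted p of 0.244 in edgeR's quasi-likelihood test, so it was not called. DESeq2 gave an adjusted p of 0.0369 and voom 0.0545. Over the 18 alternatives the adjusted p ran from 0.0369 to 0.611, with DESeq2 the only one below 0.05. Without late 3 the log2 fold change was 1.21. In early minus normal it was 0.92 ± 0.43 (unadjusted p = 0.0481, adjusted p = 0.916) and in late minus early 0.60 ± 0.40.

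CXCR7 (also named ACKR3), which takes up CXCL12 and clears it, had 42.5, 47, 44.1, 32.7 and 52.2 TPM in late tumours, 53.7, 32.2, 42.6 and 60.1 TPM in early tumours and 35.3, 32.1, 39.6 and 43.6 TPM in normal ovaries. The groups overlapped throughout and the log2 fold changes were 0.18 ± 0.22 in late minus normal and 0.40 ± 0.23 in early minus normal. Ligand and receptor had no common order: late 3 had the highest CXCR4 and the lowest CXCL12, and early 11 likewise had the highest CXCR4 and the lowest CXCL12 of the early tumours, but late 23 was next to highest of the late tumours for both.

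**Figure D2:**
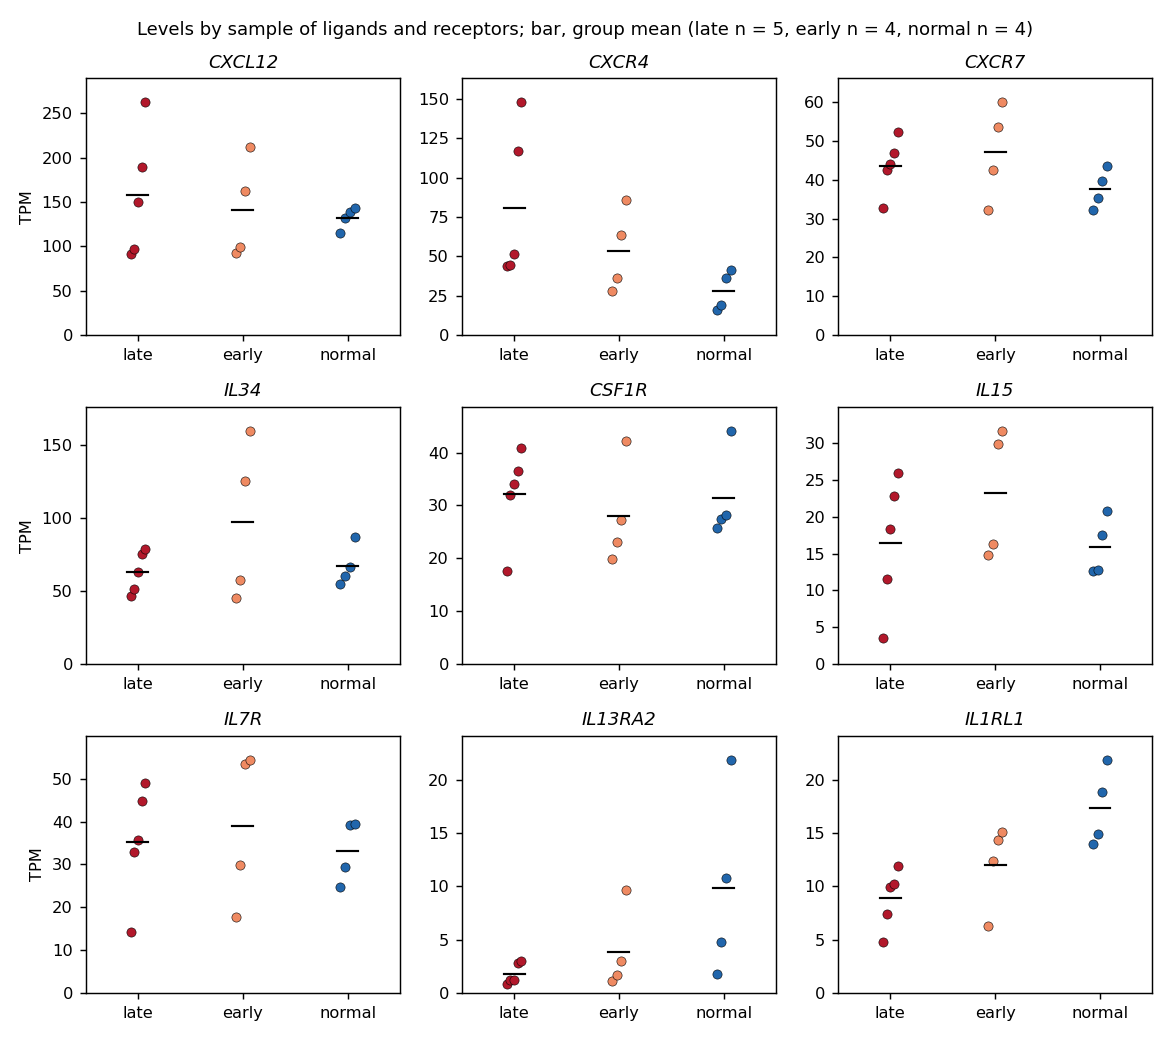
TPM by sample (points) and group mean (bars) of CXCL12 and its receptors CXCR4 and CXCR7, IL34 and its receptor CSF1R, and IL15, IL7R, IL13RA2 and IL1RL1; late n = 5, early n = 4, normal n = 4, each axis from 0. Late and normal points are separate for CXCR4 and IL1RL1 and overlap in the other panels.

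The chicken CXCL13-like genes are paralogues of CXCL13, which draws B cells into follicles through CXCR5. CXCL13L3 had 36.1, 32.3, 15.9, 5.78 and 23.9 TPM in late tumours, 5.38, 51.3, 16.1 and 10 TPM in early tumours and 8.09, 8.07, 12.5 and 26.3 TPM in normal ovaries. Early 11 was highest of all and its group spread from 5.38 to 51.3 TPM, so the log2 fold changes of 0.66 ± 0.59 in late minus normal and 0.52 ± 0.62 in early minus normal were smaller than or near their errors. Without early 11 the value in early minus normal was -0.35. CXCL13L2 had 9, 5, 8, 3 and 12 counts in late tumours, 4, 6, 4 and 2 in early tumours and 4, 0, 0 and 11 in normal ovaries, and CXCL13 itself had 0, 0, 8, 0 and 0 counts in late tumours, 0, 0, 1 and 2 in early tumours and 1, 0, 1 and 0 in normal ovaries. CXCR5 had 1 count after rounding, in normal 4, where the estimate was not a whole number, so a receptor for these ligands was near the limit of detection at this depth. In RefSeq CXCR5 overlaps BCL9L, which averaged 2.85 TPM.

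CC chemokines were low apart from CCL26. CCL26, an eotaxin in mammals that attracts eosinophils, had 2.25, 33.7, 9.82, 17.6 and 3.91 TPM in late tumours, 18.8, 4.64, 8.84 and 16.6 TPM in early tumours and 36, 39.4, 16.4 and 11.6 TPM in normal ovaries. Normal 3 and normal 4 were highest with late 7 close behind, and late 3, late 31 and early 11 were lowest. Its log2 fold change was -1.03 ± 0.71 in late minus normal and -1.0 ± 0.75 in early minus normal, with overlapping groups. CCL19, which guides T cells and dendritic cells to lymphoid tissue, had 0.674, 6.38, 2.69, 3.28 and 1.15 TPM in late tumours, 3.24, 0.779, 1.19 and 3.62 TPM in early tumours and 2.4, 2.63, 2.53 and 1.24 TPM in normal ovaries. Late 7 was highest and late 3 lowest. CCR7, the receptor of CCL19, had 8, 3, 4, 4 and 1 counts in late tumours, 4, 8, 3 and 12 in early tumours and 8, 5, 5 and 7 in normal ovaries, and did not pass the filter.

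CCL20, the ligand of CCR6, had 3, 8, 14, 4 and 7 counts in late tumours, 5, 5, 4 and 6 in early tumours and 2, 3, 3 and 4 in normal ovaries. CCR6, found on B cells and T cells, had 0, 2, 4, 3 and 2 counts in late tumours, 4, 1, 0 and 11 in early tumours and 5, 4, 3 and 6 in normal ovaries. Neither passed the filter. CCL4 and CCL5, which attract T cells and monocytes, passed it with at most 5.23 and 5.94 TPM in any library. CCR2, a monocyte receptor, ranged over 0.336 to 1.61 TPM in late tumours, 0.33 to 1.89 TPM in early tumours and 1.13 to 1.78 TPM in normal ovaries. Of its values 38.5% were not whole numbers, so its level is uncertain. The other CC genes below the filter were CCL1, CCL17, CCLI5, CCLI7, CCLL4, CCR4, CCR8, CCR8L and CCR9. CCR10 passed with 98 counts in all.

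CX3CL1 (fractalkine), a membrane-bound chemokine of endothelium and epithelium, had 7.99, 7.92, 6.22, 4.92 and 5.18 TPM in late tumours, 8.04, 8.56, 6.36 and 7.55 TPM in early tumours and 7.13, 5.49, 4.46 and 6.16 TPM in normal ovaries. It was among the steadier ligands, with a log2 fold change of 0.45 ± 0.22 in early minus normal (unadjusted p = 0.06) and 0.09 ± 0.21 in late minus normal. Its receptor CX3CR1, carried by monocytes and macrophages, had 0.101, 0.774, 1, 0.679 and 0.3 TPM in late tumours, 0.813, 0.196, 0.303 and 0.685 TPM in early tumours and 1.04, 0.738, 1.01 and 0.917 TPM in normal ovaries. Late 3 and early 11 were lowest and normal ovaries lay together at the upper end.

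XCL1, a chemokine of activated T and natural killer cells, had 0.208, 0.792, 1.86, 0.629 and 0.274 TPM in late tumours, 0.755, 0.135, 0.276 and 1.4 TPM in early tumours and 2.69, 1.07, 1.06 and 2.2 TPM in normal ovaries. Its log2 fold change was -1.16 ± 0.68 in late minus normal and -1.28 ± 0.74 in early minus normal, with late 23 and early 21 inside the normal range. XCR1, its receptor on cross-presenting dendritic cells, had 2, 3, 12, 6 and 1 counts in late tumours, 6, 2, 1 and 5 in early tumours and 2, 3, 4 and 4 in normal ovaries. CXCL14, expressed by epithelium and stroma, ranged over 5.34 to 18.2 TPM in late tumours, 5.61 to 13.3 TPM in early tumours and 10.6 to 21.3 TPM in normal ovaries. In RefSeq CXCL14 overlaps SLC25A48, which averaged 5.83 TPM against 12.8 for CXCL14. The use of strand in counting is not given, so reads of these genes may be shared.

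IL8L1 and IL8L2, the chicken counterparts of CXCL8 that recruit heterophils, were hardly read. IL8L1 had 4, 2, 1, 0 and 3 counts in late tumours, 0, 0, 0 and 3 in early tumours and 0, 0, 0 and 3 in normal ovaries, and IL8L2 had 1, 5, 11, 5 and 3 counts in late tumours, 6, 3, 3 and 3 in early tumours and 2, 5, 1 and 8 in normal ovaries. Both overlap RASSF6, which averaged 55.1 TPM. CXCR1, a receptor for CXCL8, had 2.23, 1.67, 2.4, 2.4 and 1.97 TPM in late tumours, 1.23, 1.77, 2.45 and 1.78 TPM in early tumours and 1.58, 1.46, 1.71 and 2.33 TPM in normal ovaries. Its groups overlapped and no log2 fold change exceeded 0.19 in size.

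IL4 had the highest mean of all 99 members. It is the cytokine of type 2 T cells in mammals, is held in the chicken table at 158 TPM on average, and 84.6% of its values were not whole numbers, so its level and its rank are uncertain. It had 282, 201, 146, 106 and 255 TPM in late tumours, 52.9, 262, 138 and 98 TPM in early tumours and 116, 119, 92.9 and 182 TPM in normal ovaries. Late 3, late 31 and early 11 were highest and early 9 was lowest. Log2 fold changes were 0.54 ± 0.33 in late minus normal, 0.47 ± 0.33 in late minus early and 0.07 ± 0.35 in early minus normal, and the last was -0.37 without early 11. Its receptor chain IL4R ranged over 4.17 to 6.56 TPM in late tumours, 5.62 to 6.79 TPM in early tumours and 5.28 to 7.48 TPM in normal ovaries.

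IL9, a growth factor of mast cells and T cells, had 74.9, 61.4, 55.3, 53.2 and 58.8 TPM in late tumours, 23.5, 62.1, 62.2 and 29.7 TPM in early tumours and 38.7, 24.5, 52.1 and 70.6 TPM in normal ovaries. Early 9, early 21 and normal 4 were lowest. Late minus normal gave a log2 fold change of 0.38 ± 0.25 and late minus early one of 0.43 ± 0.25. IL9 overlaps LOC100857609 and SLC25A48 in RefSeq, which averaged 16.7 and 5.83 TPM against 51.3 for IL9, and the use of strand in counting is not given, so reads of these genes may be shared. IL9R ranged over 2.01 to 12.1 TPM in late tumours, 4.1 to 8.57 TPM in early tumours and 2.7 to 7.66 TPM in normal ovaries.

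IL15, which sustains natural killer cells and memory T cells, had 3.53, 22.8, 18.4, 26 and 11.6 TPM in late tumours, 31.7, 14.8, 16.4 and 29.9 TPM in early tumours and 12.6, 12.7, 17.5 and 20.8 TPM in normal ovaries. Early 9 and early 21 were highest and late 3 was lowest. Early minus normal gave a log2 fold change of 0.61 ± 0.54 and late minus early one of -0.53 ± 0.51. IL15RA, the chain that presents IL15, had 1.05, 0.949, 1.36, 0.9 and 1.39 TPM in late tumours, 0.692, 1.04, 0.998 and 0.915 TPM in early tumours and 1.1, 1.44, 1.48 and 1.32 TPM in normal ovaries. Early tumours lay below all normal ovaries for IL15RA, with a log2 fold change of -0.56 ± 0.28, an unadjusted p of 0.0671 and an adjusted p of 0.916. The gap was narrow, with 20 to 28 counts in early tumours and 29 to 37 in normal ovaries.

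IL7, a survival factor for lymphocytes, had 0.327, 1.08, 1.79, 1.43 and 0.777 TPM in late tumours, 1.42, 0.687, 1.03 and 1.53 TPM in early tumours and 1.12, 1.47, 1.49 and 0.975 TPM in normal ovaries. Late 3 was lowest. IL7R was read far more than its ligand: it had 14.2, 44.9, 48.9, 35.6 and 32.8 TPM in late tumours, 54.5, 17.8, 29.8 and 53.4 TPM in early tumours and 24.8, 39.3, 39.4 and 29.4 TPM in normal ovaries. Late 3 and early 11 were again lowest, early 9 and early 21 highest, and group differences were small beside that spread (0.06 ± 0.41 in late minus normal, 0.32 ± 0.43 in early minus normal). Of the IL7R values, 61.5% were not whole numbers, so its level is uncertain. IL2, IL3, IL5, IL13 and IL21 did not pass the filter, with 2, 76, 14, 9 and 4 counts in all.

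IL13RA2, a decoy receptor that binds IL13 without passing on its signal, had the most negative difference. It had 0.837, 3.01, 1.18, 2.8 and 1.18 TPM in late tumours, 9.66, 1.12, 1.7 and 3.02 TPM in early tumours and 21.9, 10.8, 4.77 and 1.82 TPM in normal ovaries. Normal 3 and normal 4 were far above all late tumours, but normal 7 lay inside the late range, and early 9 stood above the other early tumours. The log2 fold change was -2.52 ± 0.77 in late minus normal, with an unadjusted p of 0.00578 and an adjusted p of 0.244 in edgeR's quasi-likelihood test. DESeq2 gave 0.0499, and over the 18 alternatives the adjusted p ran from 0.0499 to 0.611. Without normal 3 the log2 fold change was -1.84. Of the IL13RA2 values, 61.5% were not whole numbers, so its level is uncertain. IL13RA1, the signalling chain shared by IL4 and IL13, ranged over 10.4 to 16.1 TPM in late tumours, 12.4 to 17.1 TPM in early tumours and 10.5 to 17.8 TPM in normal ovaries, with a log2 fold change of -0.13 ± 0.16.

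The shared gamma chain IL2RG had 1, 4.68, 3.63, 3.03 and 1.31 TPM in late tumours, 4.6, 1.61, 2.37 and 5.96 TPM in early tumours and 6.33, 5.99, 5.88 and 2.77 TPM in normal ovaries. Normal 3, normal 4 and normal 6 were high while normal 7 lay among the tumours, and the log2 fold change was -1.07 ± 0.53 in late minus normal. IL2RB, the beta chain shared by IL2 and IL15, was lower in both tumour stages than in every normal ovary. It had 0.0649, 0.189, 0.217, 0.111 and 0.248 TPM in late tumours, 0.108, 0.208, 0.126 and 0.214 TPM in early tumours and 0.335, 0.356, 0.425 and 0.296 TPM in normal ovaries. These levels rest on 141 counts in all, at most 12 in any tumour and 15 to 18 in normal ovaries. In RefSeq IL2RB overlaps KCTD17, and the use of strand in counting is not given, so reads of these genes may be shared. The log2 fold changes were -1.15 ± 0.39 in late minus normal (unadjusted p = 0.0105, adjusted p = 0.244) and -1.08 ± 0.42 in early minus normal (unadjusted p = 0.0211, adjusted p = 0.916). The 2 comparisons share the normal samples. IL2RB was named for its separate groups after its values were seen.

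IL34 binds the macrophage growth factor receptor CSF1R. It had 78.4, 62.6, 46.6, 75 and 51 TPM in late tumours, 125, 45.1, 57.6 and 159 TPM in early tumours and 66.4, 54.7, 86.7 and 59.9 TPM in normal ovaries. Early 9 and early 21 were highest, early 12 lay among the late and normal samples, and early 11 was just below them. In late minus early the log2 fold change was -0.86 ± 0.38 (unadjusted p = 0.0403, adjusted p = 0.736), and without early 21 it was -0.44. CSF1R, which is outside the symbol rule, had 36.6, 31.9, 34.2, 17.6 and 40.9 TPM in late tumours, 20, 42.1, 27.2 and 23.2 TPM in early tumours and 44.2, 25.7, 27.4 and 28.1 TPM in normal ovaries. Among early tumours the receptor was highest in early 11, where IL34 was lowest.

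Among the IL1 and IL18 genes, IL1B, an inflammatory cytokine of macrophages, had 3, 0, 8, 0 and 1 counts in late tumours, 1, 0, 1 and 3 in early tumours and 4, 2, 1 and 1 in normal ovaries. IL1R1, its signalling receptor, had 14.5, 19.2, 16.5, 11.1 and 16.8 TPM in late tumours, 16.9, 16.1, 16.8 and 13.1 TPM in early tumours and 14.8, 10.9, 14.5 and 14.9 TPM in normal ovaries. Its spread was small and no log2 fold change exceeded 0.23 in size. The accessory chain IL1RAP ranged over 8.82 to 20 TPM in late tumours, 10.8 to 25.5 TPM in early tumours and 10.6 to 13.6 TPM in normal ovaries, and the decoy receptor IL1R2 over 0.0346 to 0.53 TPM in late tumours, 0.167 to 0.64 TPM in early tumours and 0.439 to 1.08 TPM in normal ovaries, with a log2 fold change of -1.35 ± 0.61 in late minus normal (unadjusted p = 0.0452).

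IL1RL1, the receptor of IL33 in mammals, had 4.83, 11.9, 7.46, 9.97 and 10.3 TPM in late tumours, 14.3, 6.29, 15.1 and 12.4 TPM in early tumours and 18.9, 21.9, 14 and 14.9 TPM in normal ovaries. Every late tumour was below every normal ovary, with late 3 lowest and early 11 lowest among early tumours. The log2 fold change was -1.12 ± 0.36 in late minus normal, with an unadjusted p of 0.00732 and an adjusted p of 0.244, and over the alternatives the adjusted p ran from 0.0666 to 0.611. It was -0.54 ± 0.38 in early minus normal.

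IL18, a partner of IL12 in inducing interferon-gamma, had 3.18, 5.74, 6.3, 4.49 and 3.8 TPM in late tumours, 4.38, 4.36, 4.81 and 4 TPM in early tumours and 4.27, 3.57, 5.3 and 4.05 TPM in normal ovaries. The groups overlapped and its log2 fold changes were within 0.12 of 0. IL18R1 had 0.204, 0.538, 0.442, 0.641 and 0.219 TPM in late tumours, 1.28, 0.21, 0.406 and 1.02 TPM in early tumours and 0.656, 0.475, 0.958 and 0.536 TPM in normal ovaries. Early 9 and early 21 were highest, with log2 fold changes of 0.32 ± 0.59 in early minus normal and -0.91 ± 0.56 in late minus early. IL1RAPL2, a relative of IL1RAP known from nerve cells, had 6.18, 6.26, 9.57, 7.55 and 11.2 TPM in late tumours, 3.95, 6.77, 6.84 and 5.43 TPM in early tumours and 4.99, 3.11, 4.2 and 9.99 TPM in normal ovaries. Normal 7 stood with the late tumours, and the log2 fold change was 0.54 ± 0.29 in late minus normal (adjusted p = 0.325 in edgeR's quasi-likelihood test). It was 0.98 without normal 7, but that sample was the highest normal ovary, so leaving it out widens the difference by itself. Over the 18 alternatives the adjusted p ran from 0.0517 to 0.674.

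IL12A encodes the p35 chain that pairs with IL12B to make IL12. It had 72.7, 45.9, 42.4, 28.6 and 45.2 TPM in late tumours, 20.6, 71.9, 32.6 and 20.4 TPM in early tumours and 25.5, 19.6, 24.4 and 44.3 TPM in normal ovaries. Late 3 and early 11 were nearly equal and highest, and the log2 fold change was 0.63 ± 0.32 in late minus normal (unadjusted p = 0.0699). In early minus normal it was 0.32 ± 0.34, and -0.14 without early 11. Its partner IL12B ranged over 0.607 to 1.24 TPM in late tumours, 0.463 to 1.48 TPM in early tumours and 0.469 to 0.787 TPM in normal ovaries, far below IL12A in TPM. IL12RB2, a chain of the IL12 receptor, had 167 counts in all and log2 fold changes of -1.08 ± 0.37 in late minus normal (unadjusted p = 0.0114) and -1.15 ± 0.40 in early minus normal (unadjusted p = 0.0113).

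IL6, an inflammatory and acute-phase cytokine, had 0.843, 0.574, 1.18, 1.65 and 0.966 TPM in late tumours, 0.77, 0.876, 0.762 and 0.541 TPM in early tumours and 0.218, 0.645, 0.11 and 1.61 TPM in normal ovaries. Normal 7 and late 25 were highest and normal 6 lowest. Every one of its values was not whole and it overlaps TOMM7, which averaged 1054 TPM, so its level is uncertain. IL6ST (gp130), the signalling chain of the IL6 family, had 4.62, 6.65, 7.52, 5.18 and 6.28 TPM in late tumours, 9.43, 5.12, 6.18 and 11.3 TPM in early tumours and 9.1, 8.65, 8.24 and 6.06 TPM in normal ovaries. Its log2 fold change was -0.44 ± 0.28 in late minus normal and -0.52 ± 0.28 in late minus early, and its values were likewise not whole throughout.

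IL11RA, the receptor of the gp130 cytokine IL11, had 3.17, 7.33, 8.73, 5.75 and 5.3 TPM in late tumours, 14, 5, 9 and 16 TPM in early tumours and 12.8, 13.5, 9.18 and 6.71 TPM in normal ovaries. Early 9 and early 21 were highest and late 3 lowest. The log2 fold change was -1.10 ± 0.42 in late minus early (unadjusted p = 0.02, adjusted p = 0.736) and -0.96 ± 0.42 in late minus normal (unadjusted p = 0.0378, adjusted p = 0.266). IL31RA, another receptor of that family, ranged over 5.93 to 8.41 TPM in late tumours, 4.22 to 7.58 TPM in early tumours and 3.15 to 6.11 TPM in normal ovaries, with a log2 fold change of 0.44 ± 0.17 in late minus normal (unadjusted p = 0.0207, adjusted p = 0.249).

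In the IL10 family the receptors were read and the ligands hardly. IL10, which restrains macrophages and T cells, had 1, 1, 0, 0 and 1 counts in late tumours, 1, 2, 0 and 1 in early tumours and 3, 1, 0 and 0 in normal ovaries, and IL22 was read once, in normal 3. IL10RA had 8.17, 5.61, 4.4, 4.45 and 4.32 TPM in late tumours, 2.56, 6.07, 5.23 and 2.2 TPM in early tumours and 5.47, 3.41, 4.45 and 3.91 TPM in normal ovaries. Late 3 was highest and early 21 lowest, and the log2 fold change was 0.20 ± 0.27 in late minus normal and 0.35 ± 0.27 in late minus early. IL22RA1, an epithelial receptor chain for IL22, had 3.38, 2.6, 4.66, 2.3 and 3.5 TPM in late tumours, 3.16, 3.52, 3.4 and 2.73 TPM in early tumours and 3.76, 3.33, 3.43 and 2.8 TPM in normal ovaries. Its groups overlapped, with log2 fold changes of -0.08 ± 0.24 in late minus normal and 0.00 ± 0.25 in early minus normal. In RefSeq IL22RA1 overlaps GRHL3, which averaged 3.11 TPM against 3.28 for IL22RA1. The use of strand in counting is not given, so reads of these genes may be shared.

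IL20RA, an epithelial chain of the receptors for IL19, IL20 and IL24 in mammals, had 33.6, 28.3, 30.2, 20.2 and 32.8 TPM in late tumours, 12.4, 25.9, 22.1 and 16.7 TPM in early tumours and 17.4, 14.9, 19.1 and 31.1 TPM in normal ovaries. Normal 7 lay among the late tumours and early 9 was lowest. The log2 fold change was 0.54 ± 0.20 in late minus early (unadjusted p = 0.0192, adjusted p = 0.736) and 0.45 ± 0.20 in late minus normal (unadjusted p = 0.0434, adjusted p = 0.27). Its partner chain IL20RB had 24 counts in all.

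IL17RC, which with IL17RA forms the receptor of IL17A and IL17F, had 26.6, 47.4, 41.1, 51.7 and 31.5 TPM in late tumours, 59.9, 35.2, 56.9 and 59.1 TPM in early tumours and 53, 56.9, 58.7 and 43.2 TPM in normal ovaries. Late 3, late 31 and early 11 were lowest. Its log2 fold change was -0.66 ± 0.29 in late minus normal (unadjusted p = 0.0367, adjusted p = 0.263) and -0.66 ± 0.29 in late minus early (unadjusted p = 0.0361, adjusted p = 0.736). IL17RE, a receptor chain for IL17C in mammals, had 0.735, 1.21, 1.6, 2.06 and 1.48 TPM in late tumours, 1.63, 0.827, 1.55 and 1.45 TPM in early tumours and 2.55, 2.14, 3.08 and 1.05 TPM in normal ovaries. Normal 7 was again apart from the other normal ovaries, and the log2 fold change was -0.87 ± 0.43 in late minus normal. IL17RD, known as an inhibitor of fibroblast growth factor signalling, ranged over 9.67 to 25.3 TPM in late tumours, 10.7 to 15.1 TPM in early tumours and 8.75 to 15.5 TPM in normal ovaries, with a log2 fold change of 0.55 ± 0.25 (unadjusted p = 0.042). Of the IL17RD values, 69.2% were not whole numbers, so its level is uncertain.

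The remaining tested members had mean levels from 0.27 TPM for IL2RA, the alpha chain of the IL2 receptor, to 12.3 TPM for IL10RB, a chain shared by the IL10 family receptors. Between them stood IL6R at 9.98 TPM, IL17RA at 3.14, IL17REL at 3.43, IL1RL2 (the IL36 receptor in mammals) at 1.32, IL1RAPL1 at 0.692, IL21R at 0.705 and IL16, which attracts CD4 T cells, at 0.474. Their log2 fold changes in late minus normal ran from -0.37 ± 0.57 for IL2RA and -0.37 ± 0.51 for IL1RL2 to 0.44 ± 0.25 for IL1RAPL1, and 0 of these 9 had an unadjusted p below 0.05. Below the filter lay also IL12RB1 with 23 counts in all, IL23A with 94, IL23R with 97, IL18BP with 58, IL18RAP with 48, IL22RA2 with 30, IL5RA with 57 and IL4I1, an amino acid oxidase, with 19. The IL17 family ligands IL17C, IL17D, IL17F and IL25 had 2, 21, 18 and 23 counts in all, and RefSeq lists IL17D as a transcribed pseudogene.

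Set against all genes, no member was called in any comparison. In late minus normal, edgeR's quasi-likelihood test with Benjamini-Hochberg adjustment called 0 of 58 members, where 0% of all tested genes were called. At an unadjusted p below 0.05, 4 members were higher (CXCR4, IL17RD, IL20RA and IL31RA), or 6.9%, where 7.51% of all genes were. Another 7 were lower (IL11RA, IL12RB2, IL13RA2, IL17RC, IL1R2, IL1RL1 and IL2RB), or 12.1%, where 10.4% of all genes were. Both shares were near the background. DESeq2 called 2 of 56 members with an adjusted p, CXCR4 and IL13RA2, where 0.813% of all genes were called, and voom called 0, where 5.54% were. Late and normal samples did not overlap for 1 member with higher late values (CXCR4; 1.24% of all genes) and for 2 with lower ones (IL1RL1 and IL2RB; 1.37% of all genes).

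In early minus normal, 0 of 58 members were called by edgeR, where 0% of all genes were. At an unadjusted p below 0.05, 1 member was higher (CXCR4), where 2.15% of all genes were, and 2 were lower (IL12RB2 and IL2RB), where 2.9% were. DESeq2 called 0 members and 0.0496% of all genes, and voom 0 members and 0% of all genes. No member had early values all above normal (1.17% of all genes), and 2 had them all below (IL15RA and IL2RB; 1.2% of all genes).

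Late minus early likewise gave 0 of 58 members called by edgeR, where 0% of all genes were. At an unadjusted p below 0.05, 1 member was higher (IL20RA), where 2.39% of all genes were, and 3 were lower (IL11RA, IL17RC and IL34), where 3.96% were. DESeq2 called 0 members and 0.0558% of all genes, and voom 0 members and 0% of all genes. Groups did not overlap for 0 members in either direction, where 1.08% of all genes were higher and 0.508% lower without overlap.

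Median log2 fold changes of the 58 tested members were -0.11 in late minus normal, 0.07 in early minus normal and -0.05 in late minus early, beside 0.01, 0.01 and 0.00 over all tested genes. In late minus normal, 14 tested receptors had positive and 23 negative values (median -0.20), and 11 tested ligands positive and 8 negative ones (median 0.09). By family, the 3 tested IL6 and IL12 family ligands were all positive (median 0.63), whereas 4 of 5 receptors of that family (median -0.44) and 7 of 10 receptors of short-chain interleukins (median -0.25) were negative. One of these 3 ligands was IL6 (0.65 ± 0.59), whose level is uncertain. In CC chemokine ligands 3 of 4 were negative (median -0.35) and in IL10 family receptors 3 of 4 positive (median 0.31). Chemokine receptors had 3 positive and 4 negative values, IL17 receptors 2 and 3, and the IL1 and IL18 receptor family 4 and 4. That last family includes IL1RAPL1 and IL1RAPL2, both positive, which are not counted among the receptors above. CXC, CX3C and XC ligands had 3 positive and 2 negative values, and short-chain interleukins 3 and 1. The 1 tested IL1 or IL18 ligand was positive and 2 other interleukin-named genes were negative. Under the alternatives the median over members ran from -0.20 to 0.02 in late minus normal, from -0.04 to 0.10 in early minus normal and from -0.19 to 0.10 in late minus early, so its sign was not fixed.

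**Figure D3:**
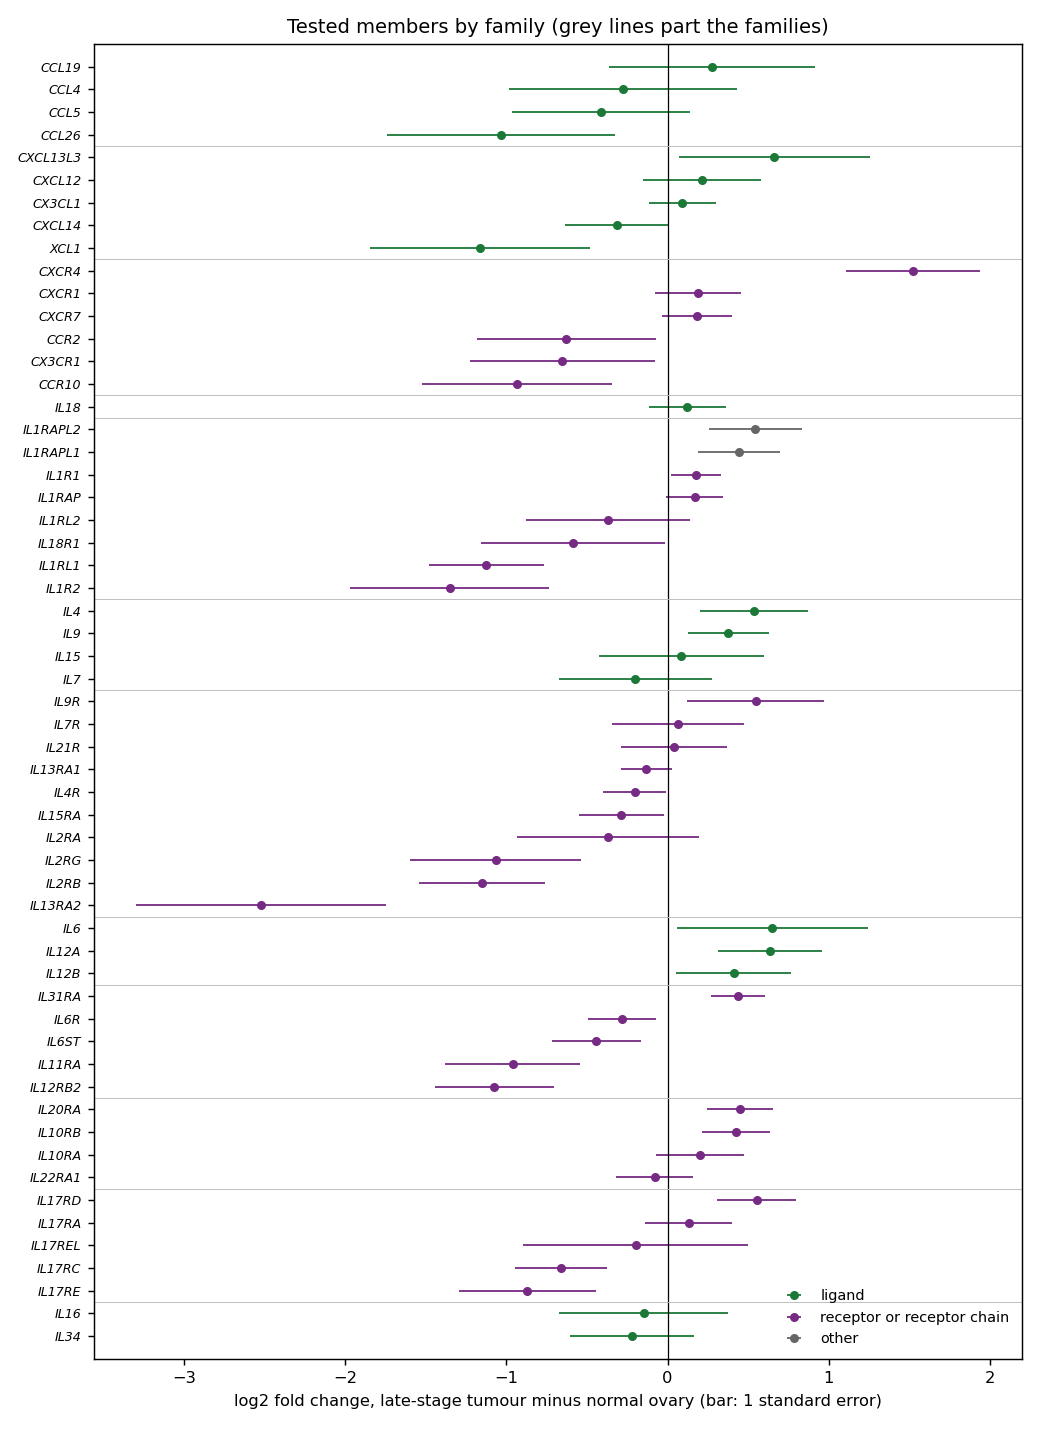
Log2 fold change in late minus normal (points) ± 1 SE (bars) for 57 of the 58 tested members, grouped by family and coloured as ligand, receptor or other. CXCR4 lies farthest right at 1.52 and IL13RA2 farthest left at -2.52, and no member had an adjusted p below 0.05.

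**Figure D4:**
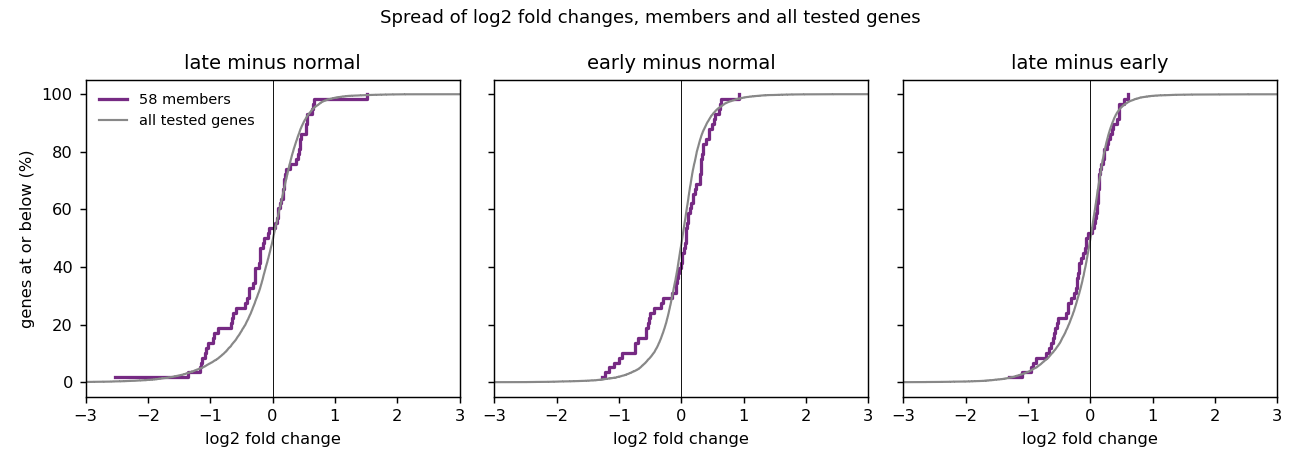
Cumulative share (percent) of log2 fold changes in each comparison for the 58 tested members and for all 16130 tested genes. The curves of members and of all genes reach 53.4% and 49.1% at 0 in late minus normal, 41.4% and 48.0% in early minus normal and 51.7% and 49.5% in late minus early, with member medians of -0.11, 0.07 and -0.05.

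Between samples of a group the median coefficient of variation after counting error was 37.6% for the 58 tested members, 46.1% for ligands and 32.6% for receptors, beside 27.8% for all tested genes. The members were also less abundant, with a median log2 CPM of 2.75 beside 4.61, and the part of abundance in the spread was not tested.

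The spread followed individual samples, a pattern chosen after the values were seen. Highest and lowest samples are taken here by normalised CPM. By TPM, early 12 was just above early 11 for IL9, at 62.2 beside 62.1. Late 3 was the lowest late tumour for 30 of 58 tested members (51.7%, against 29.3% of all tested genes), and early 11 the lowest early tumour for 29 (50%, against 34.9%). Both held for 24 members, 41.4% of those tested against 19.2% of all genes, and these include CCL19, CCL26, CCR2, CX3CR1, CXCL12, IL7R, IL15, IL2RG and XCL1. In 8 members both samples were instead highest in their group: CXCL13L3, CXCR4, IL10RA, IL12A, IL1RAP, IL20RA, IL4 and IL9 (13.8%, against 18.0% of all genes). Early 9 and early 21 were highest in their group for 23 and 22 members (39.7% and 37.9%, against 25.4% and 22.1% of all genes).

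Several marker sums also differed among these samples. Fibroblast markers summed to 526 CPM in late 3 and 1103 in early 11, the lowest of their groups, and to 8531 in early 9 and 5789.6 in early 21. The 12 macrophage markers, all tested, summed to 305 CPM in late 3 and 453 in early 11, against 1828 in early 9 and 1645 in early 21. Early 12 was close to early 11, at 482 CPM. Not every macrophage marker followed the sum. CSF1R was highest of the early tumours in early 11, at 42.1 TPM. In late 3 it had 36.6 TPM, below only late 31 among late tumours, at 40.9 TPM. B and plasma cell markers (9 of 10 listed in the table, 7 tested) summed to 140.3 CPM in late 3, against 915 to 2930.5 in the other late tumours, and to 1291 in early 11, where the lowest early tumour was early 12 at 1139 and early 9 and early 21 had 4942 and 2461. Red blood cell markers were highest in early 11, at 302 CPM. T and natural killer cell markers (12 of 12 in the table, 8 tested) summed to 480.4 CPM in late 3 and 398 in early 11, the highest of their groups. Most of that sum was 1 gene, the transcription factor EOMES, at 313 ± 101 CPM in late, 256 ± 75.8 in early and 230.4 ± 43.7 in normal (SD, n = 5, 4 and 4). The part of these markers in the member values was not tested.

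Between groups, macrophage markers summed to 305 to 866 CPM in late, 453 to 1828 in early and 689 to 1401 in normal, and T and natural killer cell markers to 244 to 480.4, 226 to 398 and 214 to 323. B and plasma cell markers summed to 140.3 to 2930.5 CPM in late, 1139 to 4942 in early and 1305 to 5713 in normal. Gene by gene, 3 of the 8 tested T and natural killer cell markers had positive and 5 negative log2 fold changes in late minus normal (median -0.31), with 0 higher and 2 lower at an unadjusted p below 0.05. Of the 7 tested B and plasma cell markers, 3 had positive and 4 negative values (median -0.22), with 0 higher and 0 lower at that p. At that p, 3 of 10 fibroblast, 7 of 7 smooth muscle, 4 of 10 endothelial and 3 of 12 macrophage markers were lower in late than in normal, where 10.4% of all genes were, and 1 endothelial marker was higher, where 7.51% were. Of 9 tested follicle and oocyte markers, 8 had positive log2 fold changes (median 0.45), with 2 higher and 0 lower at that p. For 7 tested epithelial and 4 tested heterophil markers, 1 of each list was higher and 0 lower. The part of these shifts in the lower IL1RL1, IL13RA2, IL11RA and IL2RB of late tumours was not tested.

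**Figure D5:**
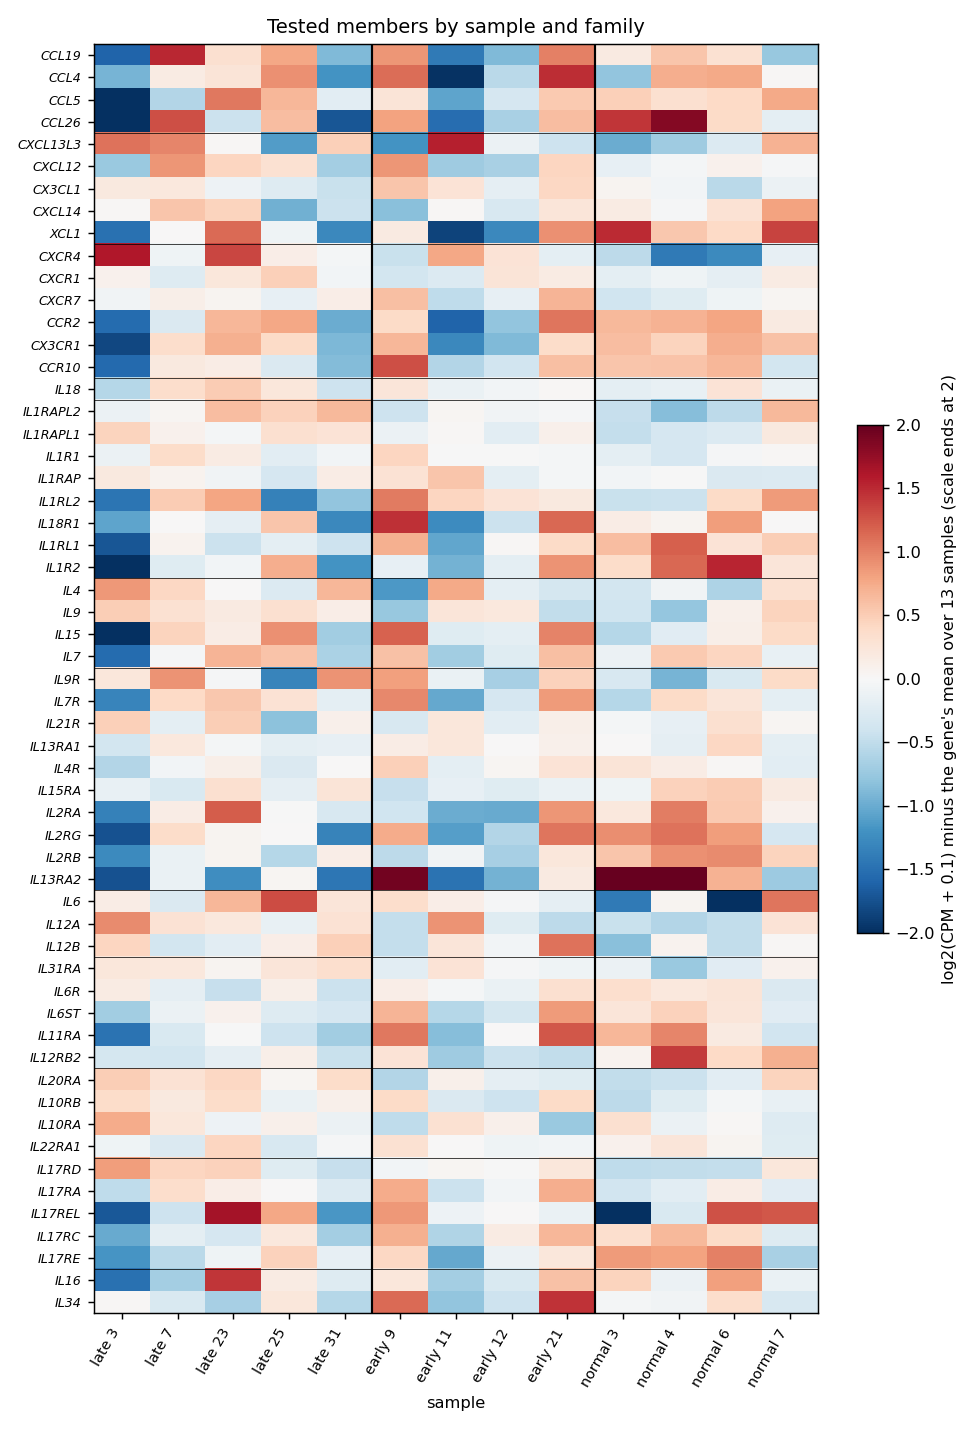
Log2(CPM + 0.1) of 57 of the 58 tested members in each sample after subtracting the gene's mean over the 13 samples (colour, scale ends at 2 and -2), with samples ordered late, early, normal and genes by family. Late 3 and early 11 are blue for the 4 tested CC chemokines, CCR2, CX3CR1 and IL7R and red for CXCR4, IL4, IL12A and CXCL13L3.

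Downstream genes of these receptors were read from 4 lists. Of the 15 tested JAK-STAT genes, 2 were higher and 4 lower in late minus normal at an unadjusted p below 0.05 (median log2 fold change -0.31), where 7.51% and 10.4% of all genes were, and 0 had an adjusted p below 0.05. Among them STAT6, which relays IL4 and IL13, had a log2 fold change of -1.87 ± 0.64 (unadjusted p = 0.0114), JAK3, the kinase of the shared gamma chain, -1.78 ± 0.69 (unadjusted p = 0.0217) and TYK2 -1.19 ± 0.37 (unadjusted p = 0.00586). SOCS1, a feedback inhibitor and the most abundant of the list at 54.7 TPM, had 0.61 ± 0.23 (unadjusted p = 0.0194). STAT6, JAK3 and TYK2 were named after their values were seen. JAK3 rests on 197 counts in all, with a mean of 0.312 TPM. In TPM, late and normal overlapped for each of these genes. Late tumours reached 5.07 TPM for STAT6, 0.347 for JAK3 and 1.75 for TYK2, and normal ovaries began at 2.89, 0.305 and 1.63.

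Of the 12 tested genes of chemokine receptor signalling and decoys, 1 was higher and 1 lower at an unadjusted p below 0.05 in late minus normal (median 0.09), where 7.51% and 10.4% of all genes were, as for the next lists. The most abundant was GNB1, a G protein subunit, at 184 TPM, with a log2 fold change of -0.07 ± 0.17. The 16 MYD88 and NF-kappaB genes gave 0 higher and 1 lower (median -0.01), and NFKBIA, their most abundant member at 129 TPM and an inhibitor of NF-kappaB, had 0.12 ± 0.17. Of 14 tested related cytokines and receptors outside the symbol rule, 0 were higher and 2 lower (median -0.21), and the most abundant, the interferon-gamma receptor chain IFNGR2 at 58.2 TPM, had a log2 fold change of -0.17 ± 0.22. In early minus normal, 0 genes of the 4 lists passed an unadjusted p of 0.05 in either direction, where 2.15% of all genes were higher and 2.9% lower. In late minus early 1 chemokine signalling gene was higher and 1 JAK-STAT gene lower, where 2.39% and 3.96% of all genes were. No gene of these lists had an adjusted p below 0.05 in any comparison.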

How the data were processed

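Messenger RNA of 13 sample codes was used. GEO holds 26 records, 2 per code, and the labels do not say which is which kind of RNA, so columns were matched to groups by code. The molecule is total RNA per the labels, but their extraction protocol speaks of DNA, and how the RNA was isolated is not given in the sources used here. Estimated counts per gene, as the authors deposited them, are 29.1% not whole numbers (tolerance 1e-06) and were rounded for the tests. TPM values come from the authors' other deposited table. FastQC, BWA and GATK 3.3.0 are named, with no role, per the submitters' processing notes. Not given in the sources used here are the counting program, its use of strand and the genome build, so no coordinates or sequences are printed. The miRNA table was not used here. RefSeq (assembly GRCg7b) matched all 99 members and served for names, kinds of gene and overlaps alone: 25 members overlap another coding gene there.

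edgeR 4.0.16 (R 4.3.3) fitted all 13 libraries together with a mean per group, TMM scaling, filterByExpr (minimum count 10), glmQLFit with robust estimation and glmQLFTest. Benjamini-Hochberg adjustment ran over all 16130 tested genes of a comparison, with a threshold of 0.05. The fit was also run on simulated counts with known changes, and the share it recovered is not given here. Groups were called not overlapping on normalised CPM. Alternatives were DESeq2 1.42.0, voom with quality weights and limma on log2(TPM + 0.5) and log2(TPM + 0.1) (limma 3.58.1), other scaling and filter settings, a fit of the compared groups alone, a block, and each sample left out. Depth was 16273731 to 20118629 counts per library.

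The members and lists were chosen with earlier results of these data known. Members given sample by sample were those called (none), the 10 with the highest mean TPM, the 3 highest and 3 lowest log2 fold changes of each comparison among members with an average log2 CPM of at least 0, and both partners of listed ligand and receptor pairs. Any other member with values was named after they were seen. Some listed genes (ACKR3 under that symbol, ARRB1, ARRB2, STAT5B, RELB, TNF and LTA) were not analysed here. Values of 1 tested member are not reported here.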

Additional observations from a re-analysis of the deposited data

Results flagged for a closer look

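Of 131 groups of 4 or 5 samples, 9 held a sample set apart from the rest by more than Dixon's 95% critical value for its gap. Chance gives about 1 in 20.

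In 4 groups the sample was low. Normal 7 had 1.24 TPM of CCL19, where the other normal ovaries had 2.40 to 2.63, and 2.77 TPM of IL2RG, where they had 5.88 to 6.33. Normal 4 had 10.9 TPM of IL1R1, against 14.5 to 14.9 in the other normal ovaries. Early 11 had 35.2 TPM of IL17RC, against 56.9 to 59.9 in the other early tumours.

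In 5 groups the sample was high and the others were at 0. There the gap equals the range, so any value above 0 passes the critical value and the flag carries no weight. Late 23 had 1.55 TPM of CXCL13. CXCR5 in normal 4 was at 0.0383 TPM and IL22 in normal 3 at 0.103 TPM, which is 1 count each after rounding. IL8L1 was at 0.152 TPM in early 21 and at 0.161 TPM in normal 7.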

How the results depend on the processing

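Members called stayed at 0 in every comparison and alternative except DESeq2 in late minus normal, which called 2 (CXCR4 and IL13RA2). The cause was not tested. Over all genes DESeq2 called 126 in late minus normal, 8 in early minus normal and 9 in late minus early, voom called 893 in late minus normal, and 113 were called in late minus normal without normal 7, where edgeR on all libraries called 0. Of the values of the named members under alternatives, 592 of 594 in late minus normal, 524 of 528 in early minus normal and 561 of 561 in late minus early kept their side of the threshold and their size within an SE where the sign changed. The exceptions were the 2 DESeq2 calls and 4 early minus normal values: CXCL13L3 -0.35, IL12A -0.14 and IL4 -0.37 without early 11, beside 0.52, 0.32 and 0.07 with it, and IL20RA 0.17 without normal 7, beside -0.09. Signs changed in 19, 67 and 40 values, none of them a call.

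Late and normal share the sample numbers 3 and 7, which the labels do not describe as pairs. Deviations of same-numbered samples from their group means correlated at 0.208 for number 3 and 0.171 for number 7. The log2 CPM of normal 7 and late 7 correlated at 0.981 over all tested genes, the highest of all library pairs. Normal 7 also reached 0.978 with early 12 and 0.977 with late 23, while normal 3 and late 3 correlated at 0.906. A replicate block for these numbers called 0 members and 0 genes in late minus normal, and gave CXCR4 a log2 fold change of 1.58. Low counts limit the 41 untested members.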
